A study of Homo sapiens with 3 samples.

Results

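RSL-3/LA survivors were set directly against RSL-3 survivors in a genome-wide CRISPR knockout screen of Huh-7 cells, a human line derived from hepatocellular carcinoma. The comparison used 2 of the 3 sgRNA libraries of the screen, 1 for each survivor population, joined on all 119461 sgRNAs of the pooled GeCKOv2 library, which fall into 21815 targets. In both arms the cells carried the same library at a target MOI of 0.3, so that most transduced cells held a single sgRNA. The first survivor population had been exposed to 0.1 µM RSL-3 for 24 h and the other to 0.03 µM RSL-3 with linoleic acid (LA), given in the labels as 50 mM, for 24 h. Untreated cells of the same pool made up the remaining library and are shown beside the survivors as the level before selection. The methods describe repeated selection for 3 and for 5 times, separately, whereas the legends give the same number of selections in both arms. LA, the dose of RSL-3 and the number of selections therefore cannot be told apart in any difference given here. Each population was sequenced as 1 library, so no difference has a replicate check, no test between conditions was made, and the survivors of a single culture cannot show how another culture would have come out.

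Ferroptosis is an iron-dependent form of cell death in which peroxides of polyunsaturated phospholipids accumulate in membranes. GPX4 reduces these peroxides to alcohols, and RSL-3 inactivates GPX4. LA is a polyunsaturated fatty acid that cells take up, activate to a CoA ester and place in phospholipids, or first elongate and desaturate, and the resulting chains are substrates of peroxidation. In a survival screen the count of an sgRNA reflects how common the descendants of its carriers have become, so an sgRNA can be abundant because the loss of its target protects the cell or because a few cells survived for other reasons.

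The total count was 1467705 in RSL-3 survivors, 1485991 in RSL-3/LA survivors and 1466896 in untreated cells. Counts were divided by these totals and are given as counts per 1000000 (CPM). At least 1 count was found for 2938 sgRNAs in RSL-3 survivors but for 4970 in RSL-3/LA survivors. A level of 100 CPM was reached by 578 and 1643 sgRNAs, respectively. Where no read was counted, a share of up to 0.000204% of RSL-3 survivors or 0.000202% of RSL-3/LA survivors remains possible, which corresponds to 3 counts. The 95% intervals below are exact binomial intervals (Clopper-Pearson). They and this limit account for counting error alone, because PCR reads are not independent molecules.

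Libraries sequenced together can exchange a few reads. A target was therefore taken as present in 1 survivor library only when it reached 100 CPM there and held fewer than 3 counts in the other after 600 ppm of the counts of the abundant sgRNA, that is 600 of 1000000, had been set aside as possibly misassigned. It was taken as present in both when it reached 100 CPM in each, and as mostly in 1 library when it reached 100 CPM there and lay between these limits in the other. The rule itself keeps the counts of such sgRNAs in the other library low, so the values that follow describe them and do not measure the allowance. The 522 sgRNAs held by RSL-3 survivors only had 307 counts in the other library against 701097 in their own, or 438 ppm. The 1569 sgRNAs held by RSL-3/LA survivors only had 469 against 1118709, or 419 ppm. Of these sgRNAs, 401 and 1249 had 0 counts in the other survivor library. Among the 20 most abundant sgRNAs of each kind the value ranged from 155 to 1063 ppm in RSL-3 survivors and from 163 to 860 in RSL-3/LA survivors.

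By number, most targets abundant in a survivor library were found in that library only. Of 21815 targets, 435 (1.99%) were found in RSL-3 survivors only, 1398 (6.41%) in RSL-3/LA survivors only and 60 (0.275%) in both. The corresponding numbers of sgRNAs were 522 (0.437%), 1569 (1.31%) and 27 (0.0226%) of 119461. The 60 shared targets were 10.4% (95% interval 8.02 to 13.2) of the 578 targets abundant in RSL-3 survivors and 3.72% (2.85 to 4.77) of the 1611 abundant in RSL-3/LA survivors. Over all 21815 targets, 7.38% were abundant in RSL-3/LA survivors and 2.65% in RSL-3 survivors, so that these shares lay near and somewhat above those of the library as a whole. A further 83 targets lay mostly in RSL-3 survivors and 153 mostly in RSL-3/LA survivors. At the threshold, the least abundant targets held by 1 library only lay at 100.2 and 100.3 CPM, and the most abundant target below it lay at 99.5 CPM.

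Targets found in RSL-3 survivors only held 33.3% (33.2 to 33.4) of the counts of that library, and targets found in RSL-3/LA survivors only held 67.6% (67.5 to 67.7) of the counts of theirs. The shared targets held 47.8% of the counts of RSL-3 survivors but 15.8% of those of RSL-3/LA survivors. In untreated cells the same sets of targets held 2.15%, 6.90% and 0.301%. The size of the difference in number depended on the scale. With edgeR TMM factors 623 and 922 targets were held by RSL-3 and by RSL-3/LA survivors only. The numbers were 567 and 1449 without DHCR7 in the totals, and 784 and 1571 without the 10 most abundant sgRNAs of each survivor library. With DESeq2 size factors the order turned, at 1222 and 160. The size factors were taken over the 727 sgRNAs counted in both survivor libraries, of which 441 were among those held by 1 library only. The share of RSL-3 survivors fell to 18.0% when no misassigned reads were allowed for, as MUC16 and other targets with 3 or more counts in the other library then left the set.

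**Figure D1:**
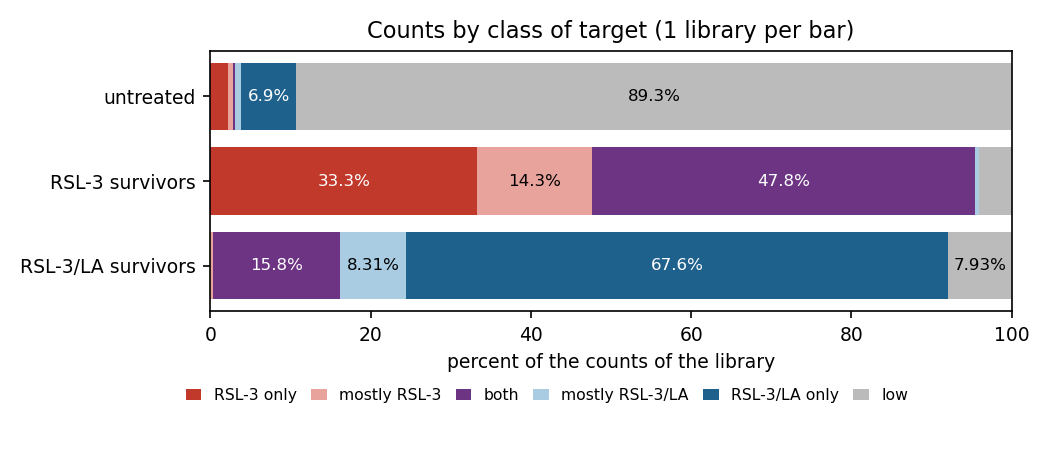
Percent of the counts of each library (horizontal axis) held by targets of each class, 1 bar per library, with counts scaled by library totals. Targets found in 1 survivor library only make up 33.3% of RSL-3 survivors, against 67.6% of RSL-3/LA survivors, whereas targets in both make up 47.8% and 15.8%; the low class in grey reached 100 CPM in neither survivor library and holds 89.3% of untreated cells.

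**Figure D2:**
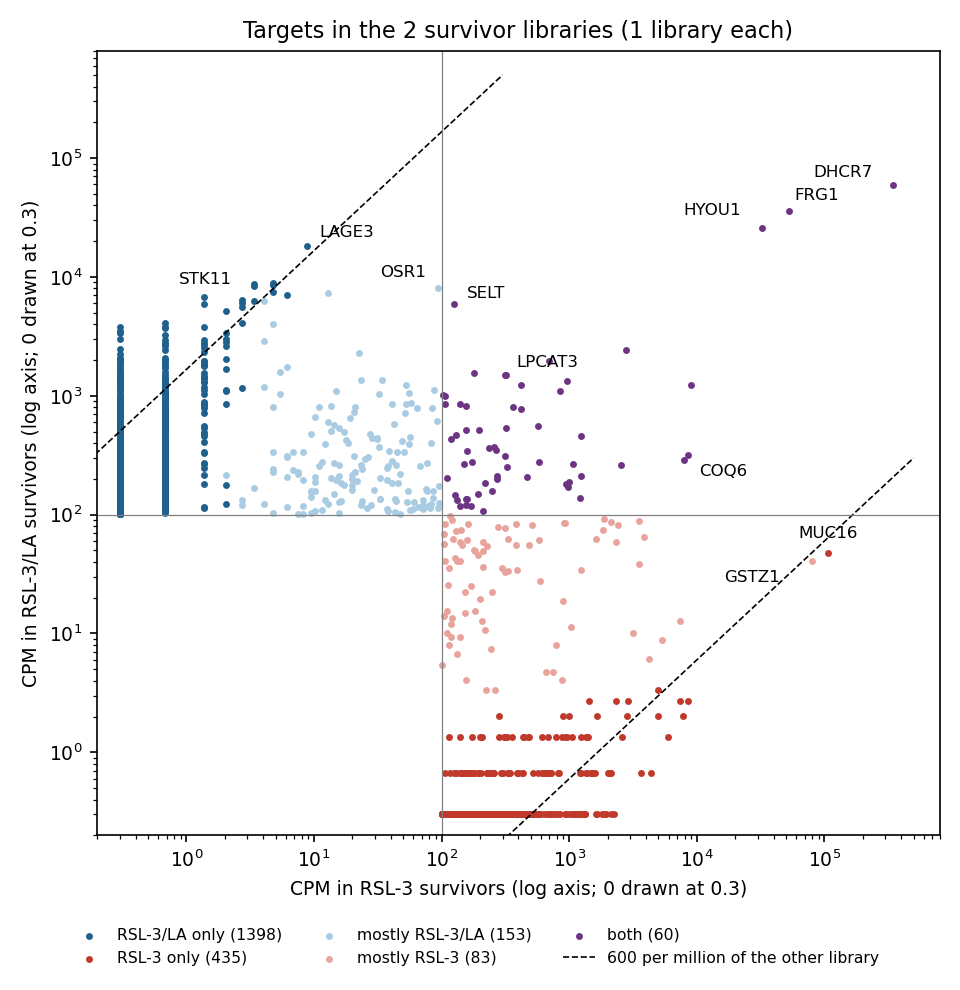
CPM over total counts of each target at 100 CPM or more in at least 1 survivor library, in RSL-3 survivors (horizontal log axis) and in RSL-3/LA survivors (vertical log axis), with 0 drawn at 0.3, grey lines at 100 CPM and dashed lines at 600 ppm of the other library. The 435 and 1398 targets held by 1 library only lie along the axes, and DHCR7, FRG1 and HYOU1 lie high in both.

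Held counts were more concentrated in RSL-3 survivors. A single target, MUC16, held 10.6% of all counts of RSL-3 survivors, and the most abundant target of RSL-3/LA survivors only, LAGE3, held 1.83% of that library. The first 10 targets held 15.7% of RSL-3 survivors, against 8.67% of RSL-3/LA survivors. The counts of the class were divided evenly between the first 14 targets and all the others in RSL-3 survivors, whereas this took 159 targets in RSL-3/LA survivors. The level of a typical member was alike, with a median of 249 CPM over the 435 targets and of 253 CPM over the 1398. At 1000 CPM or more there were 55 and 118 targets, at 5000 CPM or more 5 and 14, and at 10000 CPM or more 1 in each.

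**Figure D3:**
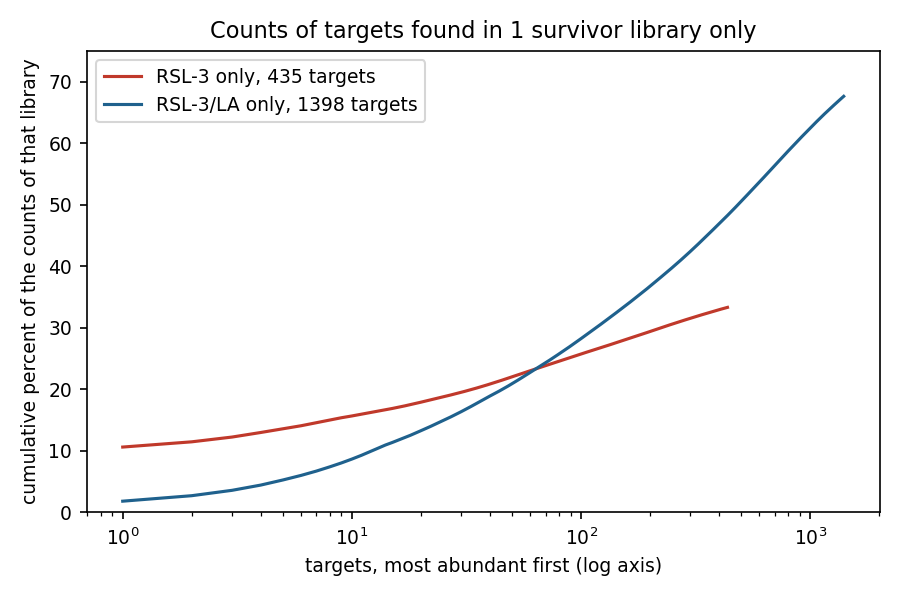
With classes set on total counts, cumulative percent of the counts of a survivor library (vertical axis) over the targets found in that library only, most abundant first (horizontal log axis). RSL-3 survivors start at 10.6% with MUC16 and end at 33.3% after 435 targets, and RSL-3/LA survivors start at 1.83% with LAGE3 and end at 67.6% after 1398.

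DHCR7, the enzyme that reduces 7-dehydrocholesterol to cholesterol in the last step of the Kandutsch-Russell branch, was the most abundant target of both survivor populations. It held 503098 counts in RSL-3 survivors, 88221 in RSL-3/LA survivors and 46 in untreated cells. Its CPM in RSL-3/LA survivors was 0.173 times (95% interval 0.172 to 0.174) that in RSL-3 survivors. This ratio stayed below 1 on the 4 other scales that were tried, between 0.00286 with DESeq2 size factors and 0.121 without DHCR7 in the totals.

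The sgRNAs of DHCR7 did not share this ratio. HGLibA_13093 had 286897 counts in RSL-3 survivors, against 76533 in RSL-3/LA survivors, for a ratio of 0.263 (0.261 to 0.266). HGLibA_13095 had 216198 and 3482 counts, a ratio of 0.0159 (0.0154 to 0.0164), and 129.7 of the 3482 fell within the allowance for misassigned reads. HGLibB_13075 went the other way, with 3 counts in RSL-3 survivors, against 8206 in RSL-3/LA survivors. Its 3 counts lay within the allowance, so this sgRNA belonged to RSL-3/LA survivors only. The composition of the DHCR7 counts thus differed between the populations. HGLibA_13093 made up 57.0% of them in RSL-3 survivors, against 86.8% in RSL-3/LA survivors, HGLibA_13095 43.0% and 3.95%, and HGLibB_13075 0.000596% and 9.30%. The remaining sgRNAs of the gene had 0 counts in every library.

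LPCAT3, an acyltransferase that places polyunsaturated chains in phospholipids, was also shared, at 472 counts in RSL-3 survivors, against 2222 in RSL-3/LA survivors, with 147 in untreated cells. The ratio was 4.65 (4.21 to 5.15). It stayed above 1 with TMM factors, at 1.42, and turned with DESeq2 size factors, at 0.0768. Only HGLibB_27038 was abundant in both populations, with 466 and 612 counts, a ratio of 1.30 (1.15 to 1.47). HGLibA_27076, which held all 147 untreated counts of the gene, had 2 counts in RSL-3 survivors, against 937 in RSL-3/LA survivors, for a ratio of 463 (128 to 3827), and was found in RSL-3/LA survivors only. HGLibB_27037 had 4 and 673 counts, a ratio of 166 (64.6 to 612), and was mostly in RSL-3/LA survivors, since 3.60 of the 4 counts remained after the allowance.

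**Figure D4:**
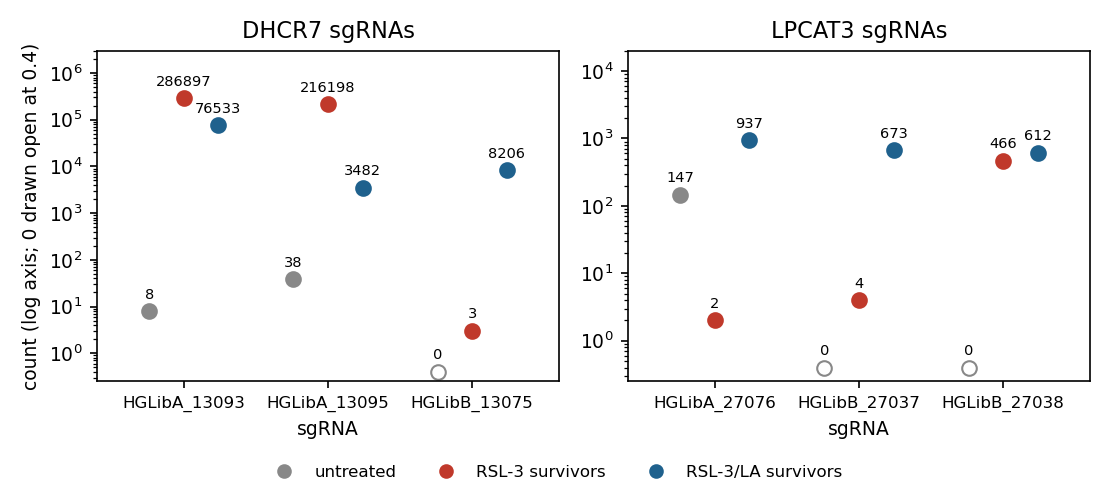
Counts (vertical log axis, 0 drawn open at 0.4) of the sgRNAs of DHCR7 and LPCAT3 with at least 1 count, in untreated cells, RSL-3 survivors and RSL-3/LA survivors, 1 library each and totals within 1466896 to 1485991. HGLibA_13093 is high in both survivor populations, HGLibA_13095 is 216198 against 3482, and HGLibB_13075, HGLibA_27076 and HGLibB_27037 have at most 4 counts in RSL-3 survivors.

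Besides DHCR7 and LPCAT3, FRG1 and HYOU1 were the largest shared targets. FRG1, a protein linked to RNA processing and actin, held 76719 counts in RSL-3 survivors, 53603 in RSL-3/LA survivors and 1 in untreated cells, all of the survivor counts in HGLibA_17994. HYOU1, a large chaperone of the endoplasmic reticulum, held 47872, 38678 and 1, all in HGLibA_22460. Their ratios of 0.690 (0.683 to 0.698) and 0.798 (0.787 to 0.809) were near that of CD8B, a T cell coreceptor chain, at 0.862 (0.824 to 0.901), which held 4117 and 3591 counts in HGLibB_08468. CD8B lies outside the rule by which genes were named and was chosen after its values were seen.

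Presence in both libraries had different bases. In 26 of the 60 targets the same sgRNA was abundant in both, which applied to 27 sgRNAs because DHCR7 had 2. In the other 34 targets different sgRNAs were abundant in each population, so that the gene was shared but no sgRNA was. Of all sgRNAs of the library, 0.484% reached 100 CPM after RSL-3 and 1.38% after RSL-3/LA. How many targets would be shared through different sgRNAs at these shares, whatever the target, was not tested. Over the 27 sgRNAs the ratio of RSL-3/LA to RSL-3 survivors ranged from 0.0159 to 6.17 with a median of 1.08, 14 were higher in RSL-3/LA survivors and 16 lay within 2-fold. As a description, Spearman's rho of their counts was 0.543 over these 27 points, which come from 2 libraries. Over the 60 targets 29 were higher in RSL-3/LA survivors, 12 with TMM factors and 0 with size factors. Untreated cells had 0 counts for 16 of the 27 sgRNAs and 10 or more for 4.

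The widest ratios among shared targets came mostly from different sgRNAs. Where that is so, the ratio sets different sgRNAs against each other and follows no single sgRNA between the populations. SELT, now SELENOT, a thioredoxin-like selenoprotein of the endoplasmic reticulum, had 184 and 8836 counts and the highest ratio, 47.4 (41.0 to 55.2). Its counts came from HGLibA_43314 in RSL-3 survivors, at 178 against 0, and from HGLibA_43313 in RSL-3/LA survivors, at 8836 against 6. DIRAS1, a small GTPase, at a ratio of 9.80, SEC24B, a cargo adaptor of COPII vesicles, at 9.31, and RNF41, a ubiquitin ligase, at 8.72 were likewise carried by a different sgRNA in each population. MINPP1, an inositol polyphosphate phosphatase, at 7.93, had 1 sgRNA in both, HGLibB_29241 with 157 and 388 counts, and HGLibA_29281 in RSL-3/LA survivors only, with 873. All 5 ratios fell below 1 on the scale of DESeq2 size factors.

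At the other end, MALSU1, an assembly factor of the mitochondrial ribosome, had 11647 and 431 counts, a ratio of 0.0365 (0.0331 to 0.0402), from HGLibA_28030 in RSL-3 survivors and HGLibA_28031 in RSL-3/LA survivors. COQ6, a hydroxylase of ubiquinone synthesis, had 12599 and 469 counts, a ratio of 0.0368 (0.0335 to 0.0403). In contrast to MALSU1, a single sgRNA of COQ6, HGLibA_10761, was abundant in both, at 12599 and 468 counts, of which 7.56 were within the allowance. AKR1A1, an aldehyde reductase, at 0.104, LY6K, a membrane-anchored protein of the Ly6 family, at 0.113, and FAM102A, now EEIG1, at 0.136 were again carried by different sgRNAs. FAM102A held 13257 counts in RSL-3 survivors through HGLibA_15980, which had 4 in RSL-3/LA survivors, and 1684 of its 1819 counts there came from HGLibB_15958, which had 0 in RSL-3 survivors.

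Of the targets found in RSL-3 survivors only, MUC16, a large cell-surface mucin, stood apart with 155878 counts against 71 in RSL-3/LA survivors. All of them came from HGLibB_30486, and the 71 counts lay below the 93.5 allowed as misassigned. HGLibB_30486 had 2 counts in untreated cells, and another MUC16 sgRNA had 87 there and 0 in both survivor populations. ITSN1, an endocytic scaffold, followed with 12468 counts against 4, and with 120 in untreated cells for the same sgRNA. The microRNA target hsa-mir-3666 had 11393 against 3, DEFB131, a beta-defensin, 10855 against 4, and NUMB, an inhibitor of Notch signalling, 8765 against 2.

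The next targets of RSL-3 survivors only were LYG1, a lysozyme-like protein, at 7333 counts against 3, and FAM107A, an actin-associated protein, at 7288 against 5. They were followed by GNPNAT1, an acetyltransferase on the way to UDP-GlcNAc, at 6457 against 1, and CYP4F11, a P450 that hydroxylates fatty acids, at 5365 against 1. Each of the 9 targets named was abundant through a single sgRNA. Untreated cells had 0 counts of that sgRNA for DEFB131, NUMB, LYG1, GNPNAT1 and CYP4F11, and 120 and 141 for ITSN1 and FAM107A.

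GSTZ1, an isomerase of tyrosine breakdown, was abundant in RSL-3 survivors through HGLibA_20506, at 116136 counts against 39 in RSL-3/LA survivors and 92 in untreated cells. The 39 counts lay within the 69.7 allowed, and this sgRNA was held by RSL-3 survivors only. The gene as a whole was not, because another sgRNA, HGLibA_20504, had 21 counts in RSL-3/LA survivors and 0 in the other libraries. KDM4D, a histone demethylase, had 10814 counts against 19, of which 6.49 were within the allowance, and was mostly in RSL-3 survivors for the same sgRNA. POR, the NADPH-dependent reductase of P450 enzymes, had 5645 against 97, and PGRMC1, a haem-binding partner of P450 enzymes, 5163 against 57. In both genes the sgRNA abundant in RSL-3 survivors was held there only, at 6 counts for POR and 2 for PGRMC1 in RSL-3/LA survivors, whose remaining counts came from another sgRNA.

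Of the targets found in RSL-3/LA survivors only, LAGE3, a subunit of the KEOPS complex that modifies tRNAs, was the most abundant. It had 27168 counts against 13, which lay within the allowance, and 0 in untreated cells. Unlike the other targets at this level it had 2 abundant sgRNAs, HGLibA_25928 with 25634 counts against 13 and HGLibB_25893 with 1534 against 0. PRR5, a subunit of mTORC2, had 13235 against 7, CNNM2, a membrane protein of magnesium transport, 12623 against 7, and LONRF2, a RING finger protein, 12365 against 5. A non-targeting sgRNA, NonTargetingControlGuideForHuman_0586, lay among them with 12984 counts against 5 and 306 in untreated cells. Such an sgRNA directs Cas9 to no gene, and its level of 8738 CPM, against 208.6 in untreated cells, was close to that of PRR5 at 8907.

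Other targets at the head of RSL-3/LA survivors only were MARCH4, now MARCHF4, a membrane-bound ubiquitin ligase, at 11012 counts against 7, ERG, an ETS family transcription factor, at 10460 against 9, and STK11, the kinase LKB1 that activates AMPK, at 10157 against 2. PCDHB8, a protocadherin, followed at 9315 against 5. HGLibA_47454, the only abundant sgRNA of STK11, had 89 counts in untreated cells. Another STK11 sgRNA, HGLibB_47395, had 38 there and 0 in both survivor populations. For ERG, all 172 untreated counts came from sgRNAs that had 0 counts in both survivor populations. OSR1, a zinc finger transcription factor, had 12095 counts against 138, a ratio of 86.6 (73.2 to 103), all in HGLibB_34653, and was mostly in RSL-3/LA survivors. TEX14, a protein of germ cell bridges, had 10814 against 19 and was placed there because another sgRNA had 14 counts in RSL-3 survivors.

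Few targets had more than 1 sgRNA held by the same survivor library only. Over all 119461 sgRNAs, 0.437% were held by RSL-3 survivors only and 1.31% by RSL-3/LA survivors only. How many targets would hold 2 or more such sgRNAs at these shares, whatever the target, was not tested. In RSL-3 survivors 7 of the 515 targets with an sgRNA held there only (1.36%) had 2 or more such sgRNAs. In RSL-3/LA survivors the number was 52 of 1516 (3.43%), of which SYN1, a synaptic vesicle protein, had 3, with 396, 240 and 224 counts. Those of RSL-3 survivors included PCBD1, a dehydratase that recycles the cofactor of phenylalanine hydroxylase, with 1394 and 430 counts, SPATA18, a protein of mitochondrial quality control, with 868 and 172, XPNPEP2, an aminopeptidase, with 363 and 191, ZBTB7C with 248 and 226, GLRA2, a glycine receptor subunit, with 264 and 179, and EMC10, a subunit of the endoplasmic reticulum membrane complex, with 218 and 180. Only ZBTB7C, a zinc finger protein, had a further sgRNA abundant in RSL-3/LA survivors, and it was therefore in both at the level of the gene.

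In RSL-3/LA survivors the targets with the most counts in 2 such sgRNAs after LAGE3 were ADAM28, a metalloprotease, with 3770 and 1231 counts, HCRTR2, a receptor of orexins, with 2537 and 1807, DCLK1, a kinase, with 2803 and 192, and GPX6, a glutathione peroxidase of the olfactory system, with 2702 and 241. KLF16, a zinc finger transcription factor, had 2057 and 852, and AREG, a ligand of the EGF receptor, had 2534 and 290. PKD2L1, a cation channel, had 2354 and 276, PRM3, a protamine, 1514 and 469, and ZNF219, a zinc finger protein, 1099 and 664. In RSL-3 survivors 8 of these 10 targets, LAGE3 included, had between 0 and 13 counts in all and belonged to RSL-3/LA survivors only. The exceptions were KLF16, which had 1021 counts there through other sgRNAs, and ZNF219, which had 6 and was mostly in RSL-3/LA survivors.

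Genes of lipid metabolism were read from lists, as were genes of other functions, such as ribosomal proteins, tumour suppressors and apoptosis effectors. Over the 494 genes of all 21 lists, 13 (2.63%) were found in RSL-3 survivors only, 28 (5.67%) in RSL-3/LA survivors only and 5 (1.01%) in both. Over all 18992 genes of the library the corresponding values were 2.11%, 6.81% and 0.311%, and 17013 genes reached 100 CPM in neither survivor library. The median was 0 CPM in both survivor libraries for every list, as over all targets. Most members listed below were abundant through 1 sgRNA of the gene, as were most targets of the library.

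Of 22 genes of cholesterol biosynthesis, DHCR7 alone was abundant in either population. The other 21 were below 100 CPM in both, and together the list held 503098 counts in RSL-3 survivors, all of them from DHCR7, and 88236 in RSL-3/LA survivors, of which 88221 were from DHCR7. All 8 genes of SREBP control, the system by which cells match sterol synthesis to sterol supply, were at 0 counts in both populations.

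Of 20 genes of fatty acid uptake and binding, CD36, a scavenger receptor that takes up long-chain fatty acids, was found in RSL-3/LA survivors only, with 772 counts against 0, at least 254-fold over the limit of 3 counts. Of 18 genes of fatty acid activation, ACOT13, a thioesterase, was found in RSL-3/LA survivors only with 1279 counts against 3, and ACOT4, a thioesterase of peroxisomes, in RSL-3 survivors only with 507 against 0. Of 17 genes of desaturation and elongation, 2 were found in RSL-3/LA survivors only, and both act on LA and its products. FADS2, the desaturase that takes LA as its substrate, had 2028 counts against 1, and FADS1, the desaturase that acts later on the same pathway, had 318 against 2. Of the 2028 counts of FADS2, 1884 came from HGLibB_15915, which had 56 untreated counts, and 144 from HGLibA_15937, whereas HGLibB_15914 had 210 untreated counts and 0 in both survivor populations. PTPLAD1, now HACD3, a dehydratase of chain elongation, was found in RSL-3 survivors only with 361 against 0. Read against 2.11% and 6.81% over all genes, these 3 lists held 2 of 55 members in RSL-3 survivors only and 4 of 55 in RSL-3/LA survivors only.

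Of 20 genes of phospholipid remodelling, LPCAT3 was in both. PLA2G4A, a phospholipase that releases arachidonic acid, with 542 counts against 0, and MBOAT7, an acyltransferase of phosphatidylinositol, with 257 against 0, were found in RSL-3/LA survivors only. CHPT1, which makes phosphatidylcholine, was found in RSL-3 survivors only with 710 against 0. Of 33 genes of triglycerides and lipid droplets, PLIN4, a droplet coat protein, was found in RSL-3/LA survivors only with 437 against 0. Of 32 genes of fatty acid oxidation, HSD17B4, an enzyme of peroxisomal oxidation, was found in RSL-3 survivors only with 636 against 0, and ECHS1, a mitochondrial hydratase, was mostly in RSL-3/LA survivors with 167 against 88. Of 24 genes of ether lipids and peroxisomes, FAR2, a fatty acyl-CoA reductase, was found in RSL-3 survivors only with 429 against 0. Of 23 genes of lipoxygenases and P450 oxygenation, CYP4A11, a fatty acid hydroxylase, with 1890 against 0, and ALOX5AP, the activating protein of 5-lipoxygenase, with 1115 against 0, were found in RSL-3/LA survivors only, and POR was mostly in RSL-3 survivors.

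Of 26 genes that promote ferroptosis, 6 reached the threshold in a survivor library and 20 did not. Over all 18992 genes, 17013 did not, and the difference was not tested. SAT1, an enzyme of polyamine breakdown, was found in RSL-3 survivors only with 203 counts against 2, and POR and PGRMC1 were mostly there. CHAC1, which degrades glutathione, was found in RSL-3/LA survivors only with 320 against 0, and LPCAT3 was in both. Of 24 genes that suppress ferroptosis, FTL, the light chain of the iron store ferritin, with 699 counts against 0, and HSPB1, a small heat shock protein, with 287 against 0, were found in RSL-3/LA survivors only, and none in RSL-3 survivors only.

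Ubiquinone is a lipid-soluble carrier whose reduced form traps radicals in membranes. Of 13 genes of its synthesis 4 were abundant, COQ6 in both and 3 in RSL-3/LA survivors only. Over all 18992 genes, 0.311% were in both and 6.81% in RSL-3/LA survivors only, and the difference was not tested. The 3 genes in RSL-3/LA survivors only were ADCK3, now COQ8A, with 442 counts against 0, COQ7 with 226 against 0 and COQ3 with 178 against 0. Each rested on 1 sgRNA that had 0 untreated counts, and COQ3, at 119.8 CPM, lay near the threshold. By the rule at 100 CPM no gene of the list belonged to RSL-3 survivors only, although 3 genes of the list had counts in that library. At 0.0368 the ratio of COQ6 ran opposite to that of the other 3, which were at least 145.5-fold, 74.4-fold and 58.6-fold higher in RSL-3/LA survivors on the scale of total counts.

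Of 30 genes of iron handling, SLC11A2, an importer of ferrous iron, was found in RSL-3 survivors only with 315 counts against 0, and FTL and SLC25A28, a mitochondrial iron carrier with 495 against 2, were found in RSL-3/LA survivors only. Of 11 genes of selenoprotein synthesis, TRIT1, which modifies tRNAs, was found in RSL-3 survivors only with 445 against 0. Of 35 genes of glutathione and thioredoxin, GSTT1, a glutathione transferase, was found in RSL-3 survivors only with 182 against 0, GPX1, a cytosolic glutathione peroxidase, in RSL-3/LA survivors only with 149 against 0, and GSTZ1 was mostly in RSL-3 survivors. The level of GPX1, 100.3 CPM, was at the threshold. Of 12 genes of phenylalanine and tyrosine breakdown, PCBD1, with 1824 against 1, was found in RSL-3 survivors only and GSTZ1 mostly there, and none was found in RSL-3/LA survivors only. Of 25 chaperones and stress genes of the endoplasmic reticulum, HYOU1 was in both, and PDIA6, a disulfide isomerase with 1851 against 0, and CHAC1 were found in RSL-3/LA survivors only.

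Genes that act in other forms of death or in growth control were also divided. Of 23 apoptosis effectors, BMF, a BH3-only protein, with 271 counts against 0, and the death receptor FAS with 181 against 0 were found in RSL-3 survivors only. CASP8, the caspase activated by death receptors, with 463 against 0, APAF1, the apoptosome scaffold, with 421 against 0, and BBC3, the BH3-only protein PUMA, with 364 against 0 were found in RSL-3/LA survivors only. These were 8.70% and 13.0% of the list, against 2.11% and 6.81% over all genes, and the difference was not tested. Each of the 5 genes had 1 sgRNA held by that library only, and FAS, at 123 CPM, lay near the threshold. Of 36 tumour suppressors, STK11 and RB1 were found in RSL-3/LA survivors only. RB1, which restrains entry into S phase, had 933 counts against 1 from HGLibA_40413 with 615 and HGLibA_40414 with 318. CDKN1A, an inhibitor of cyclin-dependent kinases, was in both with 162 and 303 counts, a ratio of 1.85 (1.52 to 2.25), which fell below 1 with TMM factors, at 0.565. Of 77 cytosolic ribosomal proteins, a group most cells cannot lose, 5 were found in RSL-3/LA survivors only, RPS27A with 766 counts, RPL27A with 510, RPL13A with 271, RPS23 with 241 and RPL3 with 170, each against 0, and RPS2 was mostly in RSL-3 survivors with 1094 against 7. Their share of 6.49% in RSL-3/LA survivors only was near the 6.81% over all genes.

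Non-targeting sgRNAs were held by 1 survivor library at higher shares than sgRNAs to genes, in both populations. Among 111626 sgRNAs to genes, 486 (0.435%, 95% interval 0.398 to 0.476) were found in RSL-3 survivors only and 1460 (1.31%, 1.24 to 1.38) in RSL-3/LA survivors only. Among 1000 non-targeting sgRNAs the numbers were 12 (1.20%, 0.622 to 2.09) and 29 (2.90%, 1.95 to 4.14), and 0 were in both, with an interval that reaches 0.368%. Non-targeting sgRNAs were also more often counted in untreated cells, at 29.0% against 15.9% of sgRNAs to genes. The part of this difference in their shares after selection was not tested. Among 6835 sgRNAs to microRNAs the numbers were 24 (0.351%) and 80 (1.17%), and 1 was in both, hsa-mir-1913 with 187 and 219 counts.

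The shares of sgRNAs held by 1 survivor library only also varied with the level before selection, and were lowest in both where untreated cells had 0 counts. Of sgRNAs with 0 counts in untreated cells, 0.374% were found in RSL-3 survivors only and 1.18% in RSL-3/LA survivors only. With 1 to 9 untreated counts the shares were 0.999% and 1.80%, with 10 to 99 they were 0.641% and 2.07%, and with 100 or more 0.789% and 2.01%. Most sgRNAs were counted in neither survivor library, 94.6% of those with 0 untreated counts and 90.8% of those with 100 or more. Since untreated cells had 0 counts for 100308 sgRNAs, 375 of the 522 and 1187 of the 1569 sgRNAs held by 1 survivor library only had no untreated count to be set against. The sublibrary also differed, as the 63317 sgRNAs of sublibrary A, whose names begin with HGLibA, made up 56.6% of the counts before selection, 71.0% after RSL-3 and 60.4% after RSL-3/LA. A few sgRNAs weigh heavily in these shares. HGLibA_13093 and HGLibA_13095 of DHCR7 alone held 19.5% and 14.7% of RSL-3 survivors.

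MicroRNAs repress transcripts that pair with their seed, bases 2 to 8 of the mature strand. Of 1823 microRNA targets, 23 were found in RSL-3 survivors only and 76 in RSL-3/LA survivors only. The mature sequences of the most abundant one in RSL-3 survivors and of the 3 most abundant in RSL-3/LA survivors are printed from RefSeq (GRCh38.p14), where 1540 of the 1823 targets, and 90 of the 107 at 100 CPM or more in a survivor library, matched by name. The other matched strand of hsa-mir-5000, hsa-miR-5000-5p, is not printed. Other than hsa-mir-3666, these microRNAs were chosen after their values were seen. They are shown from 5′ to 3′ with the seed in capitals, because the seed decides whether 2 microRNAs pair with the same transcripts.
hsa-miR-3666, RSL-3 survivors only: cAGUGCAAguguagaugccga
hsa-miR-502-3p, RSL-3/LA survivors only: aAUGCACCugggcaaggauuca
hsa-miR-502-5p, RSL-3/LA survivors only: aUCCUUGCuaucugggugcua
hsa-miR-6892-3p, RSL-3/LA survivors only: uCCCUCUCccaccccuugcag
hsa-miR-5000-3p, RSL-3/LA survivors only: uCAGGACAcuucugaacuugga

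The hairpin hsa-mir-502 had 9024 counts in RSL-3/LA survivors against 4 in RSL-3 survivors and 0 in untreated cells. For hsa-mir-6892 the counts were 8341, 4 and 174, and for hsa-mir-5000 they were 6122, 1 and 118. No seed of these mature strands recurred in the other population. The seed of hsa-miR-3666 is shared by 5 other microRNA targets that matched by name, and these had 0 counts in both survivor populations and 82 in untreated cells. The seed of hsa-miR-502-3p is shared by 1 other target, with 0 counts in every library, and that of hsa-miR-5000-3p by 1, with 129 untreated counts and none in either survivor population. Among the 90 microRNA targets at 100 CPM or more in a survivor library that matched by name, 1 seed occurred in more than 1 target, UCUAGAG of hsa-miR-519b-5p and hsa-miR-522-5p, found in RSL-3/LA survivors only and mostly there.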

How the data were processed

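The sgRNA cassettes were amplified by PCR from genomic DNA of untreated cells, RSL-3 survivors and RSL-3/LA survivors, and read on a MiSeq. The authors ran MAGeCK, a tool also named in the submitters' processing notes. Trimming and matching settings are not given in the sources used here. The authors deposited an unnormalized count of each sgRNA in 2 tables, each pairing a survivor library with untreated cells, and the untreated column of both held the same values. Samples were grouped by their labels. The authors also deposited, for each screen against untreated cells, a table of their own scores, p-values and ranks per target, which was not used. sgRNA sequences and positions were not used here.

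The tables were joined on the sgRNA and scaled to CPM over total counts of 1466896 to 1485991. The classes, at 100 CPM, 3 counts and 600 misassigned counts in 1000000, are defined with the results, and counts were set aside per sgRNA before summing over a target. The 95% intervals of ratios were derived from exact binomial intervals of the share of RSL-3/LA counts. The classification was tried on simulated data with misassignment set below the allowance. Only planted members well above the threshold were scored there, so members near the threshold were not checked. The members, lists and settings were chosen with earlier results of these data known. Genes named are DHCR7 and LPCAT3, the 12 targets with the largest share of each survivor library, the 10 most abundant held by each only, up to 10 with 2 or more such sgRNAs, the 5 highest and lowest ratios among shared targets and up to 5 abundant members of each list. Some of these are not reported here. Others were chosen after their values were seen, which also holds for SYN1. Of 18992 gene symbols, 17419 are symbols of the GRCh38.p14 table, 1368 were matched by 1 older name and 205 stayed unmatched.

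With 1 library per condition no test was made. Alternatives were other allowances, thresholds, scalings, a filter on untreated counts and thinning to 500000 counts. edgeR 4.0.16 and DESeq2 1.42.0 (R 4.3.3) gave scaling factors only. Scripts ran in Python 3.11.15 (scipy 1.17.1, pandas 2.3.3, numpy 2.4.6, matplotlib 3.10.9).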

Additional observations from a re-analysis of the deposited data

Results flagged for a closer look

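The named targets that follow stood above their untreated level in 1 survivor population and below it in the other. The difference was not tested, since each population is 1 library. Most of these targets were held by 1 survivor library only, and that rule requires few counts in the other. For a target with untreated counts the pattern therefore follows largely from the rule and is no further result. The counts of MUC16 in RSL-3/LA survivors lay within the allowance for misassigned reads. Above the untreated level in RSL-3 survivors and below it in RSL-3/LA survivors were MUC16 at 106205 CPM (untreated 60.7, RSL-3/LA 47.8), GSTZ1 at 79128 CPM (untreated 62.7, RSL-3/LA 40.4), ITSN1 at 8495 CPM, hsa-mir-3666 at 7762 CPM, DEFB131 at 7396 CPM, KDM4D at 7368 CPM, LYG1 at 4996 CPM and FAM107A at 4966 CPM. The reverse was seen for the non-targeting sgRNA NonTargetingControlGuideForHuman_0586 at 8738 CPM in RSL-3/LA survivors, LONRF2 at 8321 CPM, MARCH4 at 7411 CPM, TEX14 at 7277 CPM, ERG at 7039 CPM, STK11 at 6835 CPM and the LPCAT3 sgRNA HGLibA_27076 at 630.6 CPM. In ITSN1, FAM107A, LONRF2, MARCH4 and HGLibA_27076 a single sgRNA held both the untreated counts and the survivor counts. In MUC16, DEFB131, LYG1, TEX14, ERG, KDM4D and hsa-mir-3666 most or all of the untreated counts belonged to other sgRNAs of the target, which were at 0 in both survivor populations. For GSTZ1 all 92 untreated counts belonged to the sgRNA that was abundant in RSL-3 survivors, and for STK11 89 of 127 belonged to the sgRNA abundant in RSL-3/LA survivors.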

How the results depend on the processing

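Each of the 9 values was recomputed with 1 choice changed at a time, 114 values in all, of which 46 stayed within 1.5 times a count, or within the 95% interval of a share or ratio, and 68 moved. The intervals of the shares are narrow, so that most shares moved. The counts of targets and sgRNAs did not move by over 1.5 times with allowances of 0, 300 or 1200 misassigned counts in 1000000, a limit of 10 counts in place of 3, totals without DHCR7 or thinning to 500000 counts. Below, each series of 6 counts gives targets in RSL-3 survivors only, in RSL-3/LA survivors only and in both, and then sgRNAs in the same order. At 30 CPM these were 850, 2342, 200, 1058, 2718 and 75, at 300 CPM 181, 571, 18, 209, 623 and 12, and at 1000 CPM 55, 118, 5, 69, 139 and 5. With DESeq2 size factors they were 1222, 160, 35, 1539, 184 and 14, so the order of the populations turned, and with sgRNAs that had at least 1 untreated count they were 143, 372, 12, 147, 382 and 11. TMM factors moved only the targets and sgRNAs in RSL-3/LA survivors only, to 922 and 1012. Totals without the 10 most abundant sgRNAs of each survivor library moved targets and sgRNAs in RSL-3 survivors only to 784 and 975 and those in both to 132 and 54.

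The share of counts in targets found in RSL-3 survivors only was 18.0%, 22.5% and 33.7% with 0, 300 and 1200 misassigned counts allowed, 35.7%, 28.8% and 22.6% at 30, 300 and 1000 CPM, and 34.0% with a limit of 10 counts. It was 34.7% with TMM factors, 36.4% with size factors, 52.3% without DHCR7 in the total, 35.5% without the 10 most abundant sgRNAs of each survivor library in the totals that set the classes, 27.8% with the filter on untreated counts and 34.0% after thinning. In the same order, the share in RSL-3/LA survivors was 55.5%, 62.5% and 68.3%, then 73.2%, 52.8% and 30.2%, then 69.8%, and then 61.1%, 33.9%, 72.4%, 69.2%, 19.5% and 68.8%. The order of the 2 shares turned with size factors and with the filter on untreated counts, and its cause was not tested. The ratio of DHCR7 was 0.0530 with TMM factors, 0.00286 with size factors, 0.121 and 0.0749 without DHCR7 and without the 10 most abundant sgRNAs of each survivor library in the totals, 0.157 with the filter and 0.0534 without HGLibA_13093, and stayed below 1 in all of these.

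No paired analysis was possible because the populations compared have 1 library each, and leaving out a library would leave nothing to compare. The number of surviving cells behind each count is not given in the sources used here, and at 100 CPM a target rests on about 147 to 149 reads.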

Other observations

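Among the 27 sgRNAs abundant in both survivor populations, several are named for genes that have close copies elsewhere in the genome. They were chosen after their values were seen. TAF1L, an intronless copy of TAF1, had 1828 counts in RSL-3 survivors, against 447 in RSL-3/LA survivors, and ALG10B, a near copy of ALG10, had 1388 and 268. GAGE12I, of a cluster of cancer-testis genes, had 400 and 314 with 296 in untreated cells, and HIST2H3C, a histone H3 gene, had 284 and 223. TBC1D3G, of the TBC1D3 family, had 175 and 645 with 12 in untreated cells. FRG1, described above, also has close copies. Whether these sgRNAs match the copies was not tested, because sgRNA sequences were not used here, so the counts of these targets cannot be given to 1 gene with certainty.

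SPTSSA, a small subunit of the enzyme that starts sphingolipid synthesis, was another shared target through a single sgRNA, HGLibA_46901, with 533 counts in RSL-3 survivors, against 1198 in RSL-3/LA survivors, for a ratio of 2.22 (2.00 to 2.46) over total counts. PGS1, which makes the precursor of cardiolipin, had 191 and 698 counts in HGLibB_36248, a ratio of 3.61 (3.07 to 4.26).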
